A study of Rattus norvegicus with 9 samples.

Results

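To describe how adipose-derived stem cells (ASCs) of an intra-abdominal depot differ from those of the subcutaneous depot, the ASCs grown from epididymal fat (EASCs) were compared with the ASCs grown from subcutaneous fat (SASCs). Both came from male Sprague-Dawley rats aged 6 weeks, and RNA was taken at passage 3 from cells kept in the same medium with fetal bovine serum. The epididymal pad lies at the testis and the subcutaneous sample was taken at the groin. No cell was treated or genetically altered, and the only labelled difference between the groups is the depot. The comparison used 6 of the 9 samples of the series, 3 EASCs and 3 SASCs, chosen by their labels, and the 3 samples of perirenal ASCs (PASCs) entered the same fit and are given beside single genes. The methods describe the replicates as wells of culture plates and do not state whether the wells of a group held cells of different animals, so the p-values below measure only the spread between these samples, which may be technical.

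ASCs are the fibroblast-like progenitors of the fat stroma. They can form adipocytes, bone and cartilage, they lay down and remodel the extracellular matrix of the depot, and they secrete factors that act on vessels, nerves and immune cells. Subcutaneous and visceral progenitors arise from different parts of the embryonic mesoderm, and in the body visceral fat is covered by mesothelium, which subcutaneous fat lacks. Cells in culture can keep the homeobox, T-box and other positional transcription factors of the place they came from.

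The deposited values were raw read counts, with totals of 23009896 to 30240496 in EASCs and 17591916 to 24792355 in SASCs. Ribosomal RNA genes took 28.5% ± 12.2 (SD, n = 3) of the counts in EASCs and 13.6% ± 2.81 (SD, n = 3) in SASCs, with no overlap between the groups, and the two-sided exact permutation test gave p = 0.1, the smallest that 3 against 3 can give. Counts were scaled by edgeR's TMM factors and are given as CPM, counts scaled to library size. Differences were tested by edgeR's quasi-likelihood test with Benjamini-Hochberg adjustment over the 14770 genes with enough counts, and every adjusted p below comes from that test. A log2 fold change is EASCs minus SASCs and is given ± its standard error (SE) from the fit, levels of the form x against y CPM are the means of the 3 EASCs and of the 3 SASCs samples, and a gene is counted as higher or lower where it changed by over 2-fold with the adjusted p under 0.05. By this rule 27.8% of all genes tested were called, 13.6% higher and 14.2% lower in EASCs, and the median log2 fold change of all genes was 0.01. Of the tested members of all gene lists below, each counted once, 21.9% were higher and 20.9% lower. The counts of each list are to be read beside these shares. An adjusted p under 0.05 at any fold was reached by 69.7%, and the groups did not overlap for 72.1% of the genes. Separate groups, mentioned for single genes below, were therefore the usual case. Replicates lay close together, with a common biological coefficient of variation of 0.0685. Under total counts without TMM the median of all genes moved to -0.39 and the split became 1349 higher and 3426 lower, or 28.3% of calls higher in place of 48.8%, and the medians of the lists below are to be read beside the median of all genes. Of the called genes named below, 22 overlap another annotated gene above 1 CPM, and since the counting of strand is not stated their reads cannot be told apart. The overlap is on the same strand for 8 (Cdon, Gdf6, Itgb1, Loxl2, Nr3c1, Ptgfr, Sned1 and Tbxa2r) and on the other strand alone for 14 (Angpt1, Cspg4, Ehd3, Gadd45a, Gpr39, Lox, Loxl4, Lrrn4, Mmp2, Ndufa4l2, Nr2f1, Psph, Sepp1 and Slc16a3).

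All 13 positive markers of mesenchymal stem cells were above 1 CPM in both groups, a low cut for such abundant genes that does not test stem cell identity. Of these markers, Dcn, Lum and Pdgfra were lower in EASCs, Eng and Itgb1 were higher, and the others were not called. Leading markers of other cell types were compared by their summed level. The 20 leukocyte markers summed to 299 to 311 CPM in EASCs and 106 to 117 CPM in SASCs, with Cd3e and Ms4a1 at 0 in every sample of both groups. Lyz2, the lysozyme of macrophages, was measured at 85.6 ± 4.81 CPM in EASCs and 10.4 ± 1.26 CPM in SASCs (SD, n = 3), and Ptprc, the pan-leukocyte antigen CD45, at 3.06 against 1.02 CPM. The 10 pericyte markers summed to 405 to 425 CPM in EASCs and 159 to 166 CPM in SASCs, but their members went both ways: Cspg4, Des and Mcam were higher, Abcc9, Kcnj8, Notch3 and Rgs5 were lower, and Des gave the largest share of the sum in EASCs. Ndufa4l2 (74.8 against 37.1 CPM, 1.01 ± 0.07) was higher too, but lost its call by DESeq2, with RLE factors, with a mean CPM of at least 1, under total counts, and without EASCs replicate 1 or SASCs replicate 3. The 11 skeletal muscle markers summed to 201 to 216 and 13.7 to 15.2 CPM, of which desmin (Des), on both lists, gave 193 against 10.98 CPM. Of the others, Myh1 (13.5 against 2.28 CPM, log2 fold change 2.56 ± 0.14), Myh2 (1.54 against 0.334 CPM, 2.16 ± 0.39), Chrna1 (1.35 against 0.625 CPM, 1.12 ± 0.35) and Cdh15 (0.293 against 0.0656 CPM, 2.03 ± 0.81) were higher at low levels, though Chrna1 lost its call under total counts, and Cdh15 did under total counts, with no filter on low counts, and without EASCs replicate 2, SASCs replicate 1 or SASCs replicate 3. Myod1 was lower, at 0 in all EASCs samples and 0.278, 0.170 and 0.391 CPM in SASCs, and Myf5, Myog and Pax7 stood at 0. The 10 adipocyte markers summed to 129 to 133 CPM in EASCs and 1821 to 1896 CPM in SASCs, mostly Lpl. Mesothelial markers summed to 219 to 231 CPM in EASCs and 25.9 to 26.2 CPM in SASCs, endothelial markers to 72.2 to 78.1 and 102 to 108 CPM, and epithelial markers to at most 2.39 CPM in any sample. Endothelial members went both ways: Kdr and Plvap were lower, Tek was higher, and the other members tested were not called. The 14 markers of Schwann cells and melanocytes summed to 155 to 163 CPM in EASCs and 220 to 229.6 CPM in SASCs. In bulk RNA, more cells of a type and more RNA per cell cannot be told apart, and the part of such cells in the results below was not tested.

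**Figure D1:**
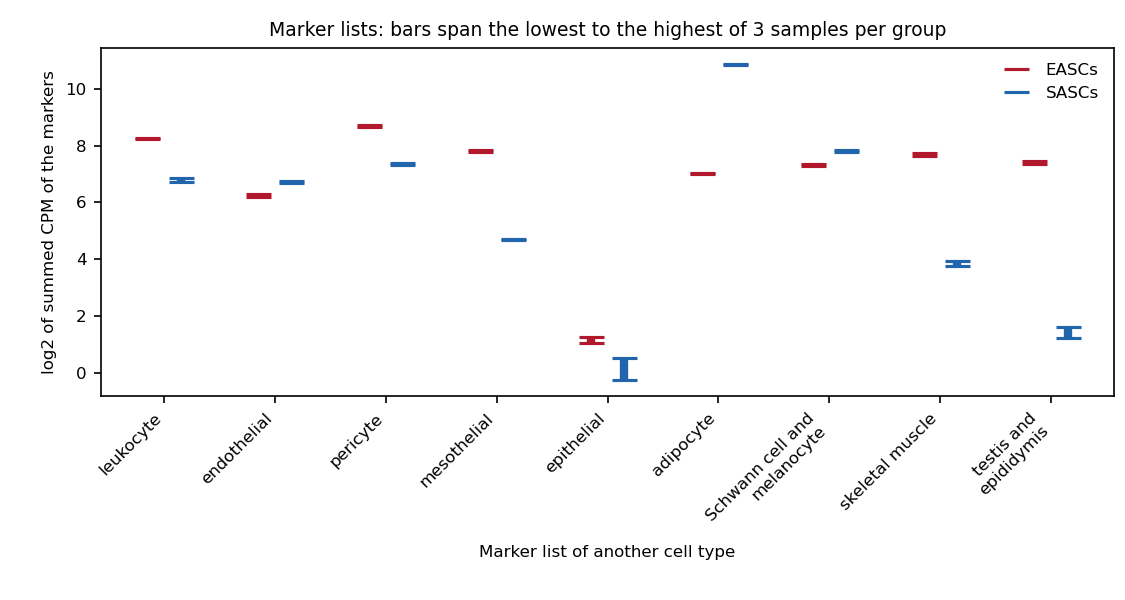
Summed CPM, on a log2 scale, of the marker lists of 9 other cell types in EASCs (red) and SASCs (blue), each bar spanning the lowest to the highest of the 3 samples. The adipocyte sum was higher in SASCs and the leukocyte, mesothelial and muscle sums were higher in EASCs, as was the pericyte sum, in which members were called in both directions.

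**Figure D2:**
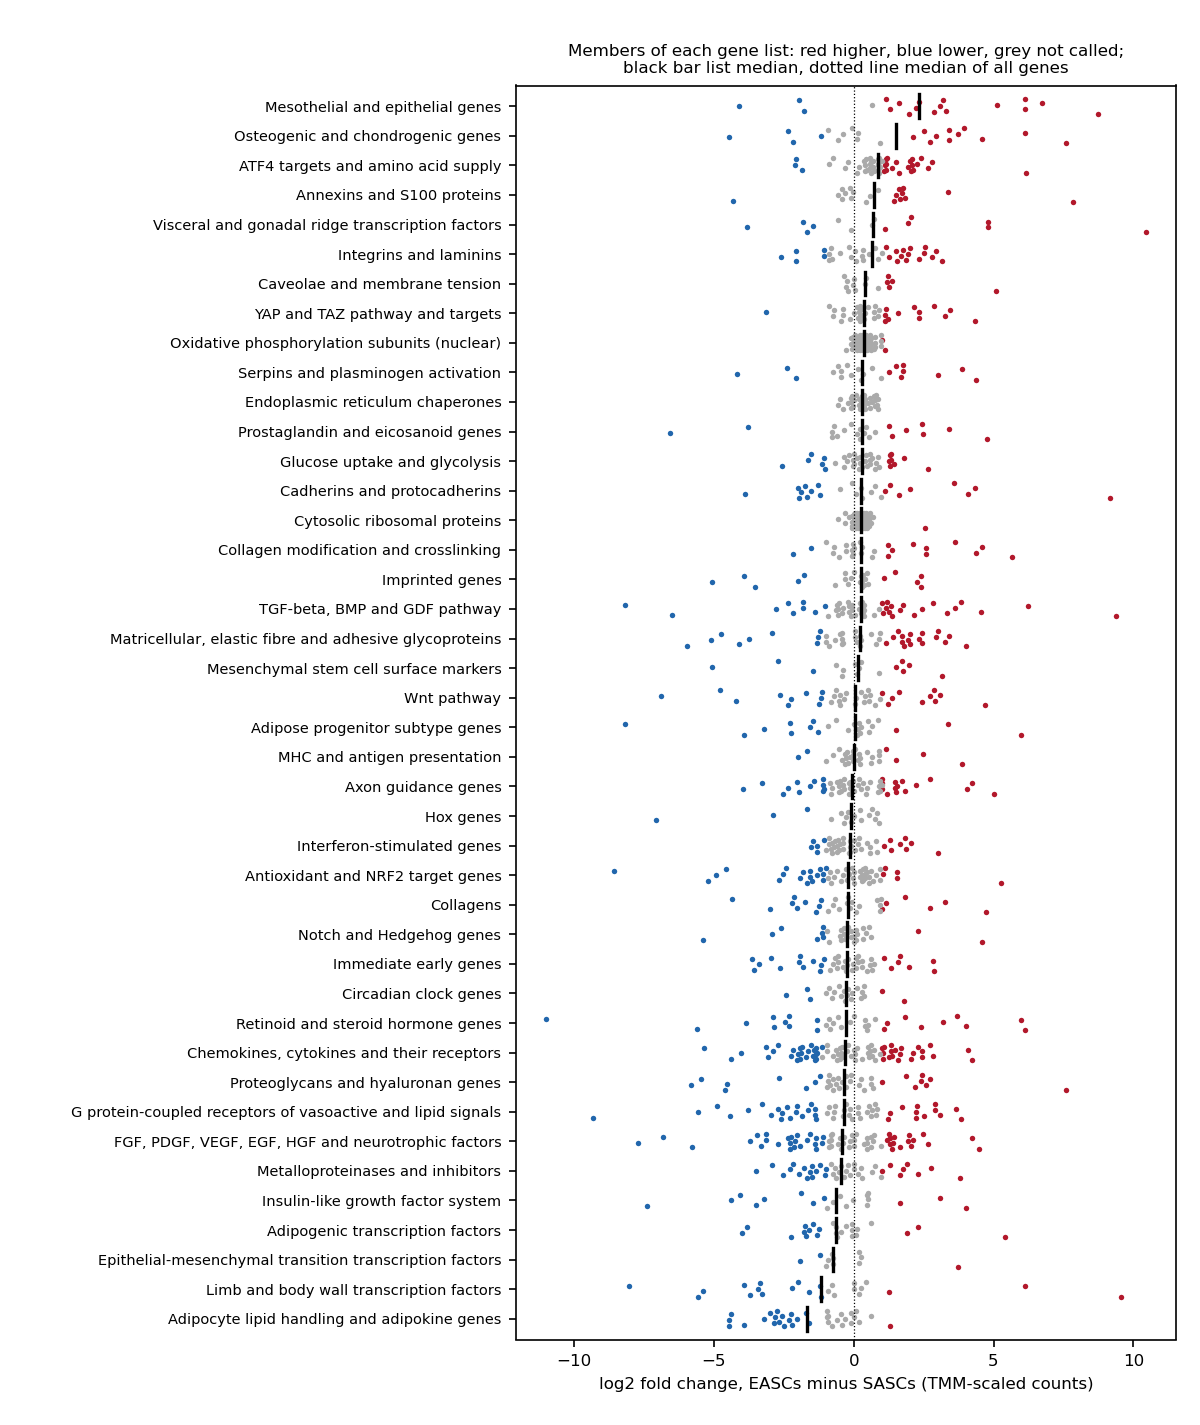
Log2 fold change, EASCs minus SASCs, of each tested member (points) of the 42 gene lists, ordered by list median (black bars). Red points were higher and blue points lower by the rule of a 2-fold change and an adjusted p under 0.05, and grey points were not called. Mesothelial and epithelial genes have the highest median (2.32, over the 19 of 34 members that passed the count filter) and adipocyte genes the lowest (-1.66).

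The positional transcription factors differed at a few genes by large margins. Among the Hox genes, which record position along the body axis, 0 of 17 members tested were higher and 3 lower, with a median log2 fold change of -0.10. The members higher were 0 by edgeR's test and by DESeq2, with 5 higher at an unadjusted p under 0.05. The median above that of all genes ran from -0.22 without EASCs replicate 3 to 0.04 without SASCs replicate 2. Within the C cluster, anterior members lay close together and posterior members apart. Hoxc4 and Hoxc5 had log2 fold changes of -0.21 and -0.46. Hoxc8 was measured at 36.3, 33.4 and 30.3 CPM in EASCs and 24.8, 21.9 and 22.4 CPM in SASCs, with a log2 fold change of 0.53 ± 0.08, and was not called. Hoxc10, a posterior member, was measured at 0.0419, 0.162 and 0.358 CPM in EASCs and 23.4, 26.6 and 26.2 CPM in SASCs. The log2 fold change of Hoxc10 was -7.07 ± 0.20 (adjusted p = 1.55e-21), with every EASCs sample far under every SASCs sample, and in PASCs the mean was 42.5 CPM, so that EASCs were lower than PASCs too (log2 fold change -7.81, adjusted p = 1.04e-21). For reference, 7.39% of genes were called between EASCs and PASCs. Hoxc9 (1.51 against 4.86 CPM, log2 fold change -1.67 ± 0.22) and Hoxb9 (0.338 against 2.49 CPM, -2.87 ± 0.39) were also lower, whereas Hoxb2, Hoxb3 and Hoxb6, anterior members of the B cluster, had log2 fold changes of 0.89, 0.83 and 0.75 and were not called.

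Factors of the limb and body wall were mostly lower in EASCs: 3 of 24 members tested were higher and 13 lower, with a median log2 fold change of -1.18. Tbx15, a T-box factor of dermal and limb mesenchyme, was measured at 1.80, 0.811 and 1.34 CPM in EASCs and 16.7, 17.2 and 17.7 CPM in SASCs. Its groups were far apart, with a log2 fold change of -3.70 ± 0.18 (adjusted p = 2.82e-16). Osr2 (1.35 against 14.5 CPM, log2 fold change -3.44 ± 0.22), Shox2 (4.10 against 16.4 CPM, -2.005 ± 0.14), Dlx3 (1.38 against 6.44 CPM, -2.22 ± 0.21) and En1 (42.6 against 94.9 CPM, -1.15 ± 0.07), homeobox or zinc finger factors of limb and skin patterning, were lower as well. Tbx5, the forelimb T-box factor, was measured at 0.0732 against 3.63 CPM (log2 fold change -5.58 ± 0.51). Pitx1, a hindlimb factor, was at 0 in all EASCs samples and at 1.98, 0.722 and 1.32 CPM in SASCs, which makes it at least 10.5-fold lower in EASCs when 3 counts per library are taken as the floor. Prrx1, the most abundant member and a general marker of limb bud mesenchyme, had 233 against 404 CPM and a log2 fold change of -0.79 ± 0.06, under the 2-fold threshold.

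Some homeobox genes of this class ran the other way. Dlx5, which acts in bone and craniofacial development, was measured at 5.02, 5.15 and 5.23 CPM in EASCs and 0.0695, 0.127 and 0 CPM in SASCs (log2 fold change 6.12 ± 0.41, adjusted p = 3.34e-13). Alx1, a factor of craniofacial mesenchyme, was measured at 4.61, 3.69 and 3.53 CPM in EASCs and at 0 in all SASCs and all PASCs samples, at least 31.3-fold higher than in SASCs. Msx1 had 11.5 against 4.86 CPM (log2 fold change 1.25 ± 0.14), a call lost under total counts without TMM.

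Factors of the visceral mesoderm and gonadal ridge were split: 6 of 14 members tested were higher and 4 lower, with a median log2 fold change of 0.69. Wt1, the zinc finger factor of mesothelium, kidney and gonad, was measured at 54.97, 51.3 and 54.9 CPM in EASCs and 1.91, 1.83 and 2.001 CPM in SASCs. No sample of the groups overlapped, as for 72.1% of all genes tested. The log2 fold change was 4.81 ± 0.10 (adjusted p = 1.36e-24), with 35.98 CPM in PASCs. Tcf21, a basic helix-loop-helix factor of visceral mesenchyme, was measured at 7.08, 7.58 and 7.29 CPM in EASCs and at 0 in every SASCs sample, at least 58.05-fold higher. Gata4 was called at a low level (0.916 against 0.0283 CPM), and Nr2f1, an orphan nuclear receptor, had 23.6 against 6.20 CPM with a log2 fold change of 1.93 ± 0.11. In the other direction Osr1 (16.04 against 56.3 CPM, -1.81 ± 0.09) and Emx2 (4.76 against 14.98 CPM, -1.66 ± 0.13), both needed for the urogenital system, were lower in EASCs. Nr2f2, the most abundant of these factors, was measured at 76.1 against 81.7 CPM and was not called.

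**Figure D3:**
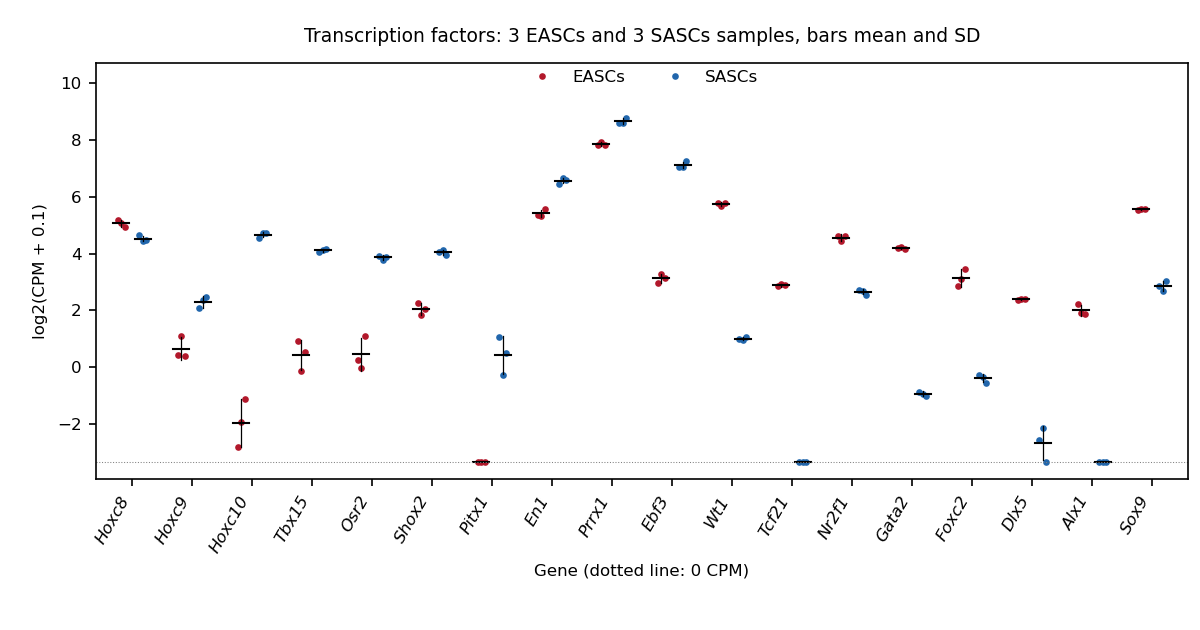
Level of 18 transcription factors as log2(CPM + 0.1) in each EASCs (red) and SASCs (blue) sample, with mean and SD of the plotted values as bars. Hoxc8 lies within 2-fold between the groups, Hoxc10, Tbx15, Osr2 and Ebf3 are lower in EASCs, and Wt1, Tcf21, Gata2, Dlx5 and Alx1 are higher.

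Genes that mark mesothelium and epithelia were mostly higher in EASCs: 15 of 19 members tested were higher and 3 lower, with a median log2 fold change of 2.32. Krt7, a simple-epithelium keratin, was measured at 61.4, 60.5 and 63.5 CPM in EASCs and 1.81, 1.91 and 1.56 CPM in SASCs (log2 fold change 5.12 ± 0.09, adjusted p = 5.54e-26), and in all EASCs samples it stood far above every SASCs sample. Lrrn4 (36.002 against 3.63 CPM, log2 fold change 3.29 ± 0.12), Msln, the mesothelial surface protein mesothelin (38.5 against 12.5 CPM, 1.63 ± 0.08), Rspo1 (24.8 against 3.46 CPM, 2.86 ± 0.13) and Pkp2, a desmosomal plaque protein (6.06 against 0.0789 CPM, 6.11 ± 0.32), were higher too. The defining epithelial gene Cdh1 was at 0 in EASCs, Epcam averaged 0.648 CPM there, and the mesothelial keratin Krt19 averaged 0.027 CPM. Dsc2, a desmosomal cadherin, was lower in EASCs (1.44 against 25.1 CPM, log2 fold change -4.12 ± 0.18), as were Slpi (-1.96) and Cldn15 (-1.80). Among 11 factors that drive epithelial-mesenchymal transition, Foxc2 was the only member higher (8.88 against 0.665 CPM, 3.71 ± 0.22), Snai2 (-1.90) and Twist1 (-1.20) were lower, and Snai1 and Zeb2 were not called.

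The surface antigens used to define mesenchymal stem cells were kept in both depots but not at the same level, and 5 of 16 members tested were higher and 3 lower, with a median log2 fold change of 0.14. Against the median of all genes, it was 0.13, and 0.20 without EASCs replicate 3. Anpep, the aminopeptidase CD13, was measured at 73.9, 77.2 and 81.4 CPM in EASCs and 2486, 2603 and 2759 CPM in SASCs. Its EASCs samples were about 33.7-fold below those of SASCs, with a log2 fold change of -5.08 ± 0.07 (adjusted p = 3.11e-28). Pdgfra, the receptor of platelet-derived growth factor that marks fat progenitors, was lower (235 against 1543 CPM, log2 fold change -2.72 ± 0.06), while Eng (CD105, 204 against 59.97 CPM, 1.77 ± 0.06), Mcam (CD146, 66.9 against 20.3 CPM, 1.72 ± 0.08) and Itgb1 (CD29, 2951 against 1046 CPM, 1.497 ± 0.06) were higher. Nt5e (CD73, 637 against 339 CPM) and Thy1 (CD90, 405 against 545 CPM) stayed within 2-fold. Among genes that mark subtypes of adipose progenitors, 3 of 24 members tested were higher and 8 lower, with a median log2 fold change of 0.05. The higher members were Anxa3 (28.96 against 2.76 CPM, 3.38 ± 0.12), Clec11a (16.5 against 5.84 CPM, 1.51 ± 0.11) and Aldh1a3 (1.20 against 0.0116 CPM, 5.99 ± 0.78). Of the lower members, Dpp4, a marker of interstitial progenitors, was measured at 0.845 against 13.02 CPM (log2 fold change -3.93 ± 0.21), and Gdf10 at 0.0419 against 13.7 CPM.

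Regulators of the adipocyte fate had more members lower than higher in EASCs, with 12 not called. For adipogenic transcription factors, 3 of 25 members tested were higher and 10 lower, with a median log2 fold change of -0.64. Pparg, the nuclear receptor required for fat cell formation, was measured at 2.47, 2.76 and 3.18 CPM in EASCs and 13.8, 14.01 and 11.4 CPM in SASCs. Cebpa, its partner, was measured at 22.3, 23.1 and 25.8 CPM in EASCs and 80.1, 69.1 and 67.2 CPM in SASCs. Both had separate groups, with log2 fold changes of -2.23 ± 0.15 and -1.61 ± 0.08. Ebf3 (8.72 against 139 CPM, -3.99 ± 0.10), Ebf1 (48.3 against 156 CPM, -1.69 ± 0.06) and Klf15 (8.98 against 31.1 CPM, -1.79 ± 0.12), which promote the adipocyte program, were lower, whereas Gata2, which restrains it, was higher (18.3 against 0.422 CPM, 5.41 ± 0.20, adjusted p = 7.07e-19), as was Prdm16, the brown fat regulator (6.36 against 1.65 CPM, 1.91 ± 0.20). Cebpb and Cebpd, which act early in the program, had log2 fold changes of -0.65 and -0.27 and were not called.

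Among the lipid handling genes and adipokines of fat cells, 1 of 34 members tested were higher and 18 lower, with a median log2 fold change of -1.66, and 15 were not called. Lpl, the lipoprotein lipase that releases fatty acids from circulating triglyceride, was measured at 111, 115 and 111 CPM in EASCs and 1694, 1709 and 1763 CPM in SASCs. The EASCs samples were 15.4-fold lower on the fitted scale (log2 fold change -3.94 ± 0.08, adjusted p = 2.13e-25). Plin1, the coat protein of lipid droplets (1.27 against 27.9 CPM, -4.45 ± 0.14), Retn, encoding resistin (0.616 against 13.4 CPM, -4.45 ± 0.22), Fabp4 (3.83 against 35.2 CPM, -3.20 ± 0.12) and Adipoq, encoding adiponectin (4.25 against 27.2 CPM, -2.67 ± 0.11), were lower. Scd, the stearoyl-CoA desaturase (506 against 1652 CPM, -1.71 ± 0.06), and Apoe (178 against 830.3 CPM, -2.22 ± 0.06) were lower as well. The single member higher in EASCs was Angptl4, an inhibitor of lipoprotein lipase (8.90 against 3.52 CPM, 1.31 ± 0.18), and its call was lost under total counts without TMM. The adipocyte markers at or above 10 CPM in SASCs were members of this list, and Lep, encoding leptin, averaged 0.200 CPM in EASCs and 0.0515 CPM in SASCs.

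The collagens, which form the fibrils and networks of the matrix, were called in both directions: 6 of 29 members tested were higher and 9 lower, with a median log2 fold change of -0.21. The fibrillar Col1a1 was the most abundant transcript of the class per length, with 3489.9 CPM per kb in EASCs and 1836 in SASCs, and its log2 fold change of 0.93 ± 0.08 was under the threshold. Col3a1 (5675 against 5365 CPM, log2 fold change 0.08) was not called. Col8a2, a short-chain collagen, was measured at 523, 515 and 587 CPM in EASCs and 57.8, 56.8 and 52.9 CPM in SASCs and did not overlap between the groups (log2 fold change 3.28 ± 0.07, adjusted p = 4.35e-25). Col7a1 of anchoring fibrils (13.2 against 0.490 CPM, 4.72 ± 0.18), Col11a1 (82.04 against 12.3 CPM, 2.74 ± 0.07) and Col5a1 (1793 against 808 CPM, 1.15 ± 0.06) were higher, though Col5a1 lost its call under total counts without TMM. The chains of the beaded-filament collagen VI, Col6a1 (322 against 1091 CPM, -1.76 ± 0.06) and Col6a2 (437 against 1034 CPM, -1.24 ± 0.06), were lower, as were Col18a1 of basement membranes (42.4 against 194 CPM, -2.19 ± 0.06) and Col14a1 (76.9 against 196 CPM, -1.35 ± 0.06).

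Enzymes that modify and crosslink collagen were mostly higher or not called in EASCs: 10 of 28 members tested were higher and 2 lower, with a median log2 fold change of 0.25. Plod2, the lysyl hydroxylase that acts on collagen telopeptides, was measured at 945, 955 and 876 CPM in EASCs and 38.7, 37.7 and 39.7 CPM in SASCs. Lox, the lysyl oxidase that starts crosslinks, was measured at 2876, 2898 and 2785 CPM in EASCs and 475, 475 and 493 CPM in SASCs. For both genes the lowest EASCs sample exceeded the highest SASCs sample, with log2 fold changes of 4.58 ± 0.07 (adjusted p = 6.18e-28) for Plod2 and 2.57 ± 0.07 (adjusted p = 2.06e-22) for Lox. Tgm2, transglutaminase 2 (154 against 7.62 CPM, 4.36 ± 0.10), Loxl2 (196 against 32.97 CPM, 2.57 ± 0.06) and Pcolce2, an enhancer of procollagen cleavage (listed as PCOLCE2, 36.5 against 0.725 CPM, 5.66 ± 0.15), were higher. Adamts2, the procollagen N-proteinase (60.2 against 268 CPM, -2.16 ± 0.06), and Loxl4 (14.3 against 41.6 CPM, -1.54 ± 0.08) were lower.

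Matrix proteinases and their inhibitors had more members lower than higher: 8 of 41 members tested were higher and 15 lower, with a median log2 fold change of -0.46. Mmp2, gelatinase A, was measured at 552, 561 and 587 CPM in EASCs and 4188, 4446 and 4377 CPM in SASCs, and Mmp14, the membrane-bound proteinase that activates it, at 492, 491 and 519.8 CPM in EASCs and 1867, 2031 and 1957 CPM in SASCs. Both were lower in every EASCs sample, with log2 fold changes of -2.94 ± 0.06 (adjusted p = 7.08e-25) for Mmp2 and -1.96 ± 0.06 (adjusted p = 3.06e-21) for Mmp14. The aggrecanases Adamts15 (9.93 against 111 CPM, -3.48 ± 0.08) and Adamts5 (54.2 against 185 CPM, -1.77 ± 0.07) were lower too. Adam12 (1166 against 238 CPM, 2.29 ± 0.07), a proteinase of mesenchymal cells, and Mmp12, the macrophage elastase (80.7 against 11.7 CPM, 2.78 ± 0.07), were higher, the latter beside the higher leukocyte marker sum given above.

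Among the small leucine-rich proteoglycans, which coat collagen fibrils, members were called in both directions. Dcn, encoding decorin, was measured at 319.5, 289 and 294 CPM in EASCs and 7024, 6899.9 and 6716 CPM in SASCs, and Lum, encoding lumican, at 75.3, 73.7 and 73.3 CPM in EASCs and 3243, 3240.2 and 3217 CPM in SASCs. Both were lower in every EASCs sample, with log2 fold changes of -4.52 ± 0.07 (adjusted p = 1.51e-27) for Dcn and -5.45 ± 0.07 (adjusted p = 9.55e-29) for Lum. Bgn, encoding biglycan of the same family, was measured at 4347 against 2821 CPM and was not called, and Fmod, encoding fibromodulin, was higher (35.4 against 7.71 CPM, 2.21 ± 0.11). Cemip, which depolymerises hyaluronan, was measured at 26.3 against 1496 CPM (log2 fold change -5.83 ± 0.07), and Gpc3, a glypican, at 1.84 against 45.4 CPM (-4.62 ± 0.12). The cell-surface proteoglycans Sdc1 (292 against 55.1 CPM, 2.41 ± 0.07), Sdc3 (98.8 against 18.2 CPM, 2.44 ± 0.07) and Cspg4 (50.2 against 8.30 CPM, 2.59 ± 0.09) were higher, the last being also a pericyte marker. Over the whole list of proteoglycans and hyaluronan genes, 8 were higher and 8 lower of 36 tested, against 7 higher and 15 lower under total counts without TMM.

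Adhesive, elastic fibre and matricellular glycoproteins, secreted proteins of the matrix and of the contact of cells with it, were more often higher than lower: 17 of 45 members tested were higher and 9 lower, with a median log2 fold change of 0.22. Tnc, encoding tenascin C of wounds and developing tissue, was measured at 3343, 3427 and 3767 CPM in EASCs and 208, 216 and 229 CPM in SASCs. The EASCs samples lay 16.1-fold above those of SASCs (log2 fold change 4.01 ± 0.07, adjusted p = 4.46e-26). Fbln2 (2347 against 292 CPM, 3.01 ± 0.06), a component of elastic fibres, and Thbs1, encoding thrombospondin 1, an activator of latent TGF-beta (7448 against 2119 CPM, 1.81 ± 0.08), were higher. The secreted fibroblast proteins Efemp1 (0.713 against 44.2 CPM, -5.96 ± 0.15), Dpt, encoding dermatopontin (1.13 against 38.7 CPM, -5.09 ± 0.13), and Tgfbi (9.02 against 154 CPM, -4.10 ± 0.08), were lower. Fn1, encoding fibronectin, was abundant in both groups (6314 against 5458 CPM) and was not called.

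**Figure D4:**
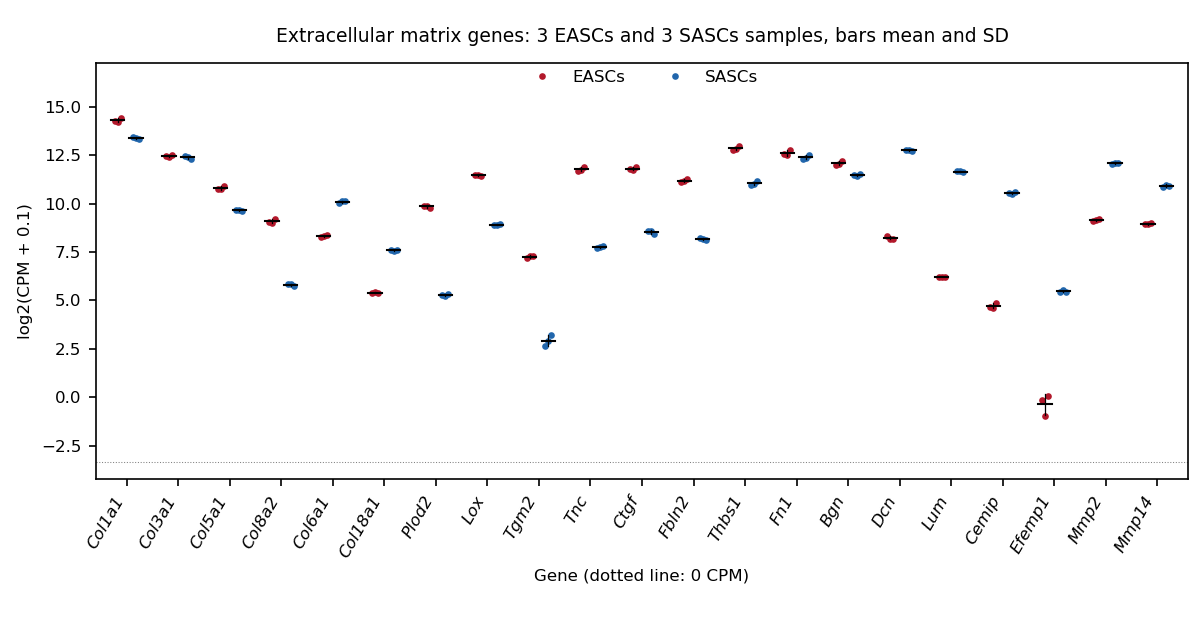
Level of 21 extracellular matrix genes as log2(CPM + 0.1) in each EASCs (red) and SASCs (blue) sample, with mean and SD of the plotted values as bars. Plod2, Lox, Tgm2, Tnc, Ctgf and Fbln2 are higher in EASCs, Dcn, Lum, Cemip, Efemp1, Mmp2 and Mmp14 are lower, and Col3a1 and Fn1 lie close together.

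Components and targets of the pathway of YAP and TAZ, the coactivators of TEAD factors that respond to cell spreading and stiff substrates, were counted together, and 12 of 38 members tested were higher and 1 lower, with a median log2 fold change of 0.38. Ctgf, encoding connective tissue growth factor and also listed among the matricellular proteins, was measured at 3579.8, 3467 and 3745 CPM in EASCs and 387, 382 and 347 CPM in SASCs. Its samples did not overlap and the log2 fold change was 3.27 ± 0.07 (adjusted p = 1.68e-24). The 250 bases before its start (RefSeq gene Ccn2, build GRCr8, chr1:22624615-22624864, minus strand) are shown because Ctgf was the most abundant of the higher members. It was chosen after its values and motif matches were seen. Capitals mark the core letters of the TEAD motif, GGAATG, at 3 places:
Ctgf: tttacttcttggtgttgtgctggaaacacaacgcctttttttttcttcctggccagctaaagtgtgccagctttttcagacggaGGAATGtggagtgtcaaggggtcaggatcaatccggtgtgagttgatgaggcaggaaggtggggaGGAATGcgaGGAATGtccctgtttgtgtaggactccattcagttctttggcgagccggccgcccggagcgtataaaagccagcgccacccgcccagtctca
Searched on both strands, GGAATG was found at least once in 12.1% of the 33469 RefSeq promoters of that length, and at 3 or more places in 0.0807%. Ankrd1 (4.24 against 0.211 CPM, 4.32 ± 0.41), Ajuba (101 against 19.9 CPM, 2.35 ± 0.06), Nuak2 (91.6 against 12.5 CPM, 2.89 ± 0.08) and Tead4 (27.2 against 5.41 CPM, 2.33 ± 0.11) were higher as well. Cyr61, a close relative of Ctgf and a common YAP readout, had 948 against 816 CPM with a log2 fold change of 0.22 ± 0.05 and was not called. Gadd45a was the only member lower (23.4 against 209 CPM, -3.15 ± 0.08).

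Among integrins, the receptors for the matrix, and laminins, the basement membrane proteins some of them bind, 15 were higher and 5 lower of 36 tested, and 16 were not called. The fibronectin receptor chain Itga5 (314 against 92.5 CPM, log2 fold change 1.76 ± 0.06), the collagen receptor chain Itga11 (443 against 117 CPM, 1.93 ± 0.06), Itga3 (77.7 against 24.2 CPM, 1.69 ± 0.07) and Itgb3 (21.8 against 2.48 CPM, 3.14 ± 0.12) were higher. Itgb2 (24.9 against 4.88 CPM) and Itgam (7.89 against 1.92 CPM), which leukocytes use, were also higher, beside the leukocyte marker sum of 299 to 311 CPM in EASCs. Lama5 was higher (76.3 against 9.97 CPM, 2.93 ± 0.10) and Lama3 lower (2.76 against 16.7 CPM, -2.59 ± 0.14). Among genes of caveolae, membrane pits that flatten under tension, and of related membrane shaping and stretch sensing, 5 were higher and 0 lower of 15 tested, the higher members being Piezo2, Ehd3, Ehd4, Ptrf and Prkcdbp. Of the caveolar genes, Ptrf (cavin 1, 356 against 157 CPM, 1.18 ± 0.06) and Prkcdbp (cavin 3, 333 against 138 CPM, 1.27 ± 0.06) were higher and Cav1 was not called. For the members lower, 0 were called by edgeR's test and by DESeq2 and 3 had an unadjusted p under 0.05, and under total counts without TMM only 1 member, Piezo2, was higher. The stretch-gated channel Piezo2 was measured at 15.7 against 0.451 CPM (5.10 ± 0.20), and Piezo1 at 277 against 316 CPM. Annexins and S100 proteins, calcium-dependent partners of the membrane, included 9 higher and 1 lower of 20 tested. Anxa8 had the largest difference (16.8 against 0.0673 CPM, 7.83 ± 0.24), the partners Anxa2 (659.7 against 229 CPM, 1.52 ± 0.06) and S100a10 (247 against 72.6 CPM, 1.77 ± 0.06) were both higher, and S100b, also on the Schwann cell list, was lower (1.48 against 29.8 CPM, -4.33 ± 0.13).

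Among the cadherins, which join cell to cell, Cdh3 had the largest difference. Cdh3, encoding P-cadherin, was measured at 65.8, 63.96 and 67.7 CPM in EASCs and 0.0695, 0.127 and 0.146 CPM in SASCs, and the groups were far apart (log2 fold change 9.16 ± 0.16, adjusted p = 4.17e-26). PASCs held 37.7 CPM. Cdh11, the cadherin of mesenchyme, was also higher (76.97 against 31.2 CPM, 1.30 ± 0.06), but lost its call under total counts without TMM. The giant cadherins Fat4 (16.9 against 53.5 CPM, -1.66 ± 0.11) and Dchs1 (10.9 against 36.1 CPM, -1.73 ± 0.09), which bind each other, were lower. Over all cadherins and protocadherins, 8 were higher and 9 lower of 25 tested, and fewer were higher under total counts without TMM or with a mean CPM of at least 1.

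In the TGF-beta and BMP family, several ligands were higher and receptors and antagonists went both ways: 18 of 54 members tested were higher and 9 lower, with a median log2 fold change of 0.25. Under total counts without TMM the list had 11 higher and 12 lower. Of the ligands, Bmp6 was measured at 98.9, 102 and 100.0 CPM in EASCs and 1.01, 1.49 and 1.61 CPM in SASCs, and Tgfb3 at 519, 513 and 526 CPM in EASCs and 36.6, 36.5 and 34.95 CPM in SASCs. Neither overlapped between the groups, with log2 fold changes of 6.23 ± 0.11 (adjusted p = 2.61e-26) for Bmp6 and 3.85 ± 0.06 (adjusted p = 1.19e-27) for Tgfb3. Inhba, the activin A subunit (349 against 34.9 CPM, 3.32 ± 0.06), and Tgfb2 (99.2 against 22.4 CPM, 2.14 ± 0.07) were higher, and Gdf6 was measured at 3.27, 3.40 and 3.67 CPM in EASCs and at 0 in all SASCs samples, at least 27.3-fold higher. Gdf10, a BMP3-like ligand, ran against them and was measured at 0.126, 0 and 0 CPM in EASCs and 12.97, 13.8 and 14.2 CPM in SASCs (log2 fold change -8.17 ± 0.34, adjusted p = 9.46e-18).

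Of the receptors, Tgfbr2, which binds TGF-beta, was measured at 289, 293 and 302 CPM in EASCs and 1489, 1479.9 and 1567 CPM in SASCs. It was lower in all EASCs samples (log2 fold change -2.36 ± 0.06, adjusted p = 2.31e-23), and the co-receptor Tgfbr3 was lower too (85.7 against 594 CPM, -2.79 ± 0.06), while the co-receptor Eng was higher as given above. Of the secreted antagonists, Fstl3, which traps activin (23.6 against 0.986 CPM, 4.55 ± 0.16), and Bmper (245 against 34.5 CPM, 2.83 ± 0.06) were higher, and Chrdl1 (1.19 against 107 CPM, -6.49 ± 0.13), Grem1 (199 against 518 CPM, -1.38 ± 0.06) and Nbl1 (163 against 579.6 CPM, -1.83 ± 0.06) were lower. The BMP target Id3 (432 against 337 CPM) was not called.

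The insulin-like growth factor system, which carries growth hormone's signal to tissues, had more members lower than higher: 3 of 20 members tested were higher and 8 lower, with a median log2 fold change of -0.62. Ghr, the growth hormone receptor, which drives Igf1, was measured at 9.71, 10.7 and 11.9 CPM in EASCs and 218, 219.8 and 232 CPM in SASCs. Igf1 itself was measured at 31.1, 25.5 and 26.9 CPM in EASCs and 318, 308 and 314 CPM in SASCs, and Igfbp5, a binding protein that holds it in the matrix, at 0.670, 1.22 and 0.760 CPM in EASCs and 145, 153 and 159 CPM in SASCs. All 3 were lower in every EASCs sample, with log2 fold changes of -4.38 ± 0.08 (adjusted p = 1.25e-25) for Ghr, -3.49 ± 0.07 (adjusted p = 3.67e-25) for Igf1 and -7.41 ± 0.12 (adjusted p = 1.19e-26) for Igfbp5. Pappa, the proteinase that frees the factor from its binding proteins (21.3 against 199 CPM, -3.22 ± 0.07), and Stc1, which inhibits it (3.39 against 56.4 CPM, -4.06 ± 0.11), were both lower. Igf2r (503 against 350.3 CPM) and Igfbp7 (232 against 163 CPM) were not called, and Igf2bp3, an RNA-binding protein, was higher (5.54 against 1.76 CPM, 1.66 ± 0.19).

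Other growth factors and their receptors were more often lower: 16 of 66 members tested were higher and 24 lower, with a median log2 fold change of -0.42. Ret, the receptor of the GDNF family, was measured at 0.0837, 0.243 and 0.134 CPM in EASCs and 36.4, 32.8 and 32.2 CPM in SASCs, and Ntrk2, the BDNF receptor, at 1.005, 1.70 and 1.52 CPM in EASCs and 77.2, 73.9 and 82.3 CPM in SASCs. Both were far lower in EASCs, with log2 fold changes of -7.72 ± 0.20 (adjusted p = 2.28e-22) for Ret and -5.78 ± 0.16 (adjusted p = 3.37e-22) for Ntrk2. Ptn, encoding pleiotrophin (0.442 against 49.6 CPM, -6.81 ± 0.18), Angpt1, which stabilises vessels (27.2 against 271 CPM, -3.31 ± 0.06), Gas6, ligand of the TAM receptors (66.7 against 593 CPM, -3.15 ± 0.06), and Csf1, the macrophage growth factor (453 against 1159.6 CPM, -1.36 ± 0.05), were lower. Higher members were Pgf, encoding placental growth factor (16.7 against 0.728 CPM, 4.48 ± 0.21), its receptor Flt1 (55.7 against 13.6 CPM, 2.04 ± 0.08), and the EGF receptor ligands Tgfa (135 against 21.5 CPM, 2.66 ± 0.06) and Hbegf (34.04 against 7.75 CPM, 2.14 ± 0.10).

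Wnt pathway genes were called in both directions, and 10 of 38 members tested were higher and 10 lower, with a median log2 fold change of 0.06. Under total counts without TMM 7 were higher and 13 lower, and the median above all genes was -0.03 without EASCs replicate 1 and 0.36 without a filter. Sfrp2, a secreted frizzled-related protein, was measured at 0.502, 0.446 and 0.537 CPM in EASCs and 59.6, 57.6 and 58.9 CPM in SASCs (log2 fold change -6.88 ± 0.15, adjusted p = 2.79e-24), and the groups did not overlap. Dkk3 (86.1 against 438 CPM, -2.34 ± 0.06), Ror1, a Wnt5a receptor (11.2 against 69.5 CPM, -2.63 ± 0.09), Wnt5a (38.4 against 84.3 CPM, -1.13 ± 0.07) and Lgr5 (0.234 against 6.75 CPM, -4.78 ± 0.33) were lower. The receptor Fzd1 (612 against 199 CPM, 1.62 ± 0.06) and the feedback target Nkd1 (9.63 against 3.71 CPM, 1.36 ± 0.16) were higher, though Nkd1 lost its call under total counts. Axin2, another feedback target, was called at a low level (3.70 against 0.126 CPM, 4.71 ± 0.39). In the Notch and Hedgehog list, 2 were higher and 7 lower of 31 tested. Gas1, a Hedgehog co-receptor, was measured at 29.9, 26.4 and 34.3 CPM in EASCs and 1292, 1242 and 1265 CPM in SASCs, and its fellow co-receptor Cdon at 47.9 against 361 CPM. Both were lower, with log2 fold changes of -5.39 ± 0.09 (adjusted p = 8.59e-27) for Gas1 and -2.91 ± 0.07 (adjusted p = 2.60e-23) for Cdon, and Dner, a Notch ligand, was higher (14.6 against 0.590 CPM, 4.59 ± 0.17).

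**Figure D5:**
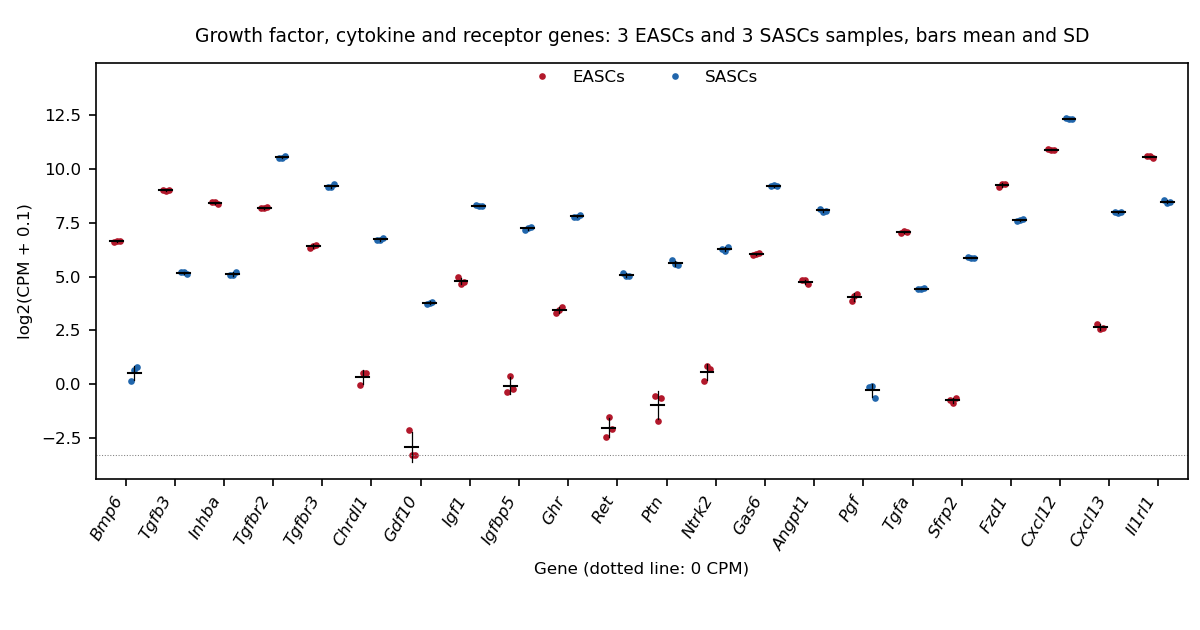
Level of 22 genes of growth factors, cytokines and their receptors as log2(CPM + 0.1) in each EASCs (red) and SASCs (blue) sample, with mean and SD of the plotted values as bars. Bmp6, Tgfb3, Inhba, Pgf, Tgfa and Il1rl1 are higher in EASCs, and Gdf10, Igfbp5, Ret, Ptn, Ntrk2 and Sfrp2 are lower.

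Chemokines and cytokines, with their receptors, were called in both directions: 21 of 76 members tested were higher and 26 lower, with a median log2 fold change of -0.32. The higher members fell to 11 under total counts without TMM and also with a mean CPM of at least 1. Cxcl12, which holds blood progenitors and lymphocytes, was the most abundant chemokine, measured at 1935, 1929.9 and 1917 CPM in EASCs and 5346, 5219.8 and 5172 CPM in SASCs (log2 fold change -1.44 ± 0.06, adjusted p = 2.53e-18). Cxcl13, which attracts B cells, was measured at 6.82, 5.76 and 6.08 CPM in EASCs and 256, 253 and 261 CPM in SASCs. Both were lower in all EASCs samples, Cxcl13 by more (log2 fold change -5.37 ± 0.08, adjusted p = 1.20e-27), and Cxcl14 (3.07 against 51.05 CPM, -4.05 ± 0.13) and Ccl11, encoding eotaxin (0.925 against 6.91 CPM, -2.89 ± 0.29), were lower too. Il1rl1, the receptor of interleukin 33, was measured at 1564, 1573 and 1488 CPM in EASCs and 375, 340.1 and 356 CPM in SASCs. It was higher in every EASCs sample (log2 fold change 2.11 ± 0.06, adjusted p = 6.67e-22), as were Il4r (412 against 162 CPM, 1.35 ± 0.05) and Pf4, which platelets and macrophages make (14.98 against 2.72 CPM, 2.45 ± 0.14). The call of Il4r was lost under total counts without TMM.

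Interferon-stimulated genes were called in 13 of 44 tested, 8 higher and 5 lower, with a median of -0.15. These shares, 18.2% higher and 11.4% lower, lay near the 13.6% and 14.2% of all genes tested. The most abundant member, Ifitm3, was measured at 236 against 378 CPM and was not called. Zbp1, a sensor of viral nucleic acid (11.6 against 1.44 CPM, 3.02 ± 0.23), Bst2 (38.1 against 10.5 CPM, 1.86 ± 0.10) and Irf8 (5.72 against 1.56 CPM, 1.85 ± 0.25), which myeloid cells express, were higher beside the leukocyte marker sum. The split of the list turned to 5 higher and 13 lower under total counts without TMM, and to 6 of each without SASCs replicate 1. The median above that of all genes was -0.31 without EASCs replicate 2, -0.24 without SASCs replicate 3 and -0.41 with a mean CPM of at least 1. Usp18 (3.78 against 10.3 CPM, -1.45 ± 0.16), Parp9 (19.95 against 49.003 CPM, -1.30 ± 0.08) and Ifit2 (55.04 against 116 CPM, -1.07 ± 0.07) were lower. For antigen presentation, 4 were higher and 2 lower of 30 tested, a split that became 2 higher and 4 lower under total counts without TMM, 2 of each without EASCs replicate 1 and 2 higher and 3 lower without SASCs replicate 3. B2m, the light chain of class I molecules, was measured at 464 against 534 CPM and was not called. RT1-T24-1, a class I gene of the rat, was higher (33.7 against 6.06 CPM, 2.47 ± 0.09), but class I genes are near-identical copies and reads could have been split between them.

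Steroid and retinoid genes were called in both directions: 9 of 32 members tested were higher and 10 lower, with a median log2 fold change of -0.29. Against the median of all genes, it was -0.16 without EASCs replicate 3, -0.45 without SASCs replicate 3 and 0 without a filter on low counts. Star, which carries cholesterol into mitochondria for steroid synthesis, was measured at 175, 173 and 164 CPM in EASCs and 2.54, 2.504 and 2.20 CPM in SASCs. The groups were far apart (log2 fold change 6.13 ± 0.08, adjusted p = 2.16e-28), while Cyp11a1, the side-chain cleavage enzyme that acts next, averaged 0.068 CPM in EASCs and 0 in SASCs and Cyp17a1 averaged 0.0149 CPM in EASCs. Of 15 markers of testis and epididymis, 9 were at 0 in both groups, and Star made up almost all of their sum. Akr1c14, a 3-alpha-hydroxysteroid dehydrogenase, was measured at 8.46, 9.40 and 7.20 CPM in EASCs and 445, 386 and 399 CPM in SASCs (log2 fold change -5.61 ± 0.08, adjusted p = 1.19e-27). Hsd11b1, which regenerates active glucocorticoid (113 against 569 CPM, -2.33 ± 0.06), and Nr3c1, the glucocorticoid receptor (82.8 against 207 CPM, -1.32 ± 0.06), were lower. Lrat, which esterifies retinol for storage, was at 0 in all EASCs samples and at 11.6, 10.4 and 10.2 CPM in SASCs, at least 84.3-fold lower. Dhrs3, a retinal reductase, was higher (9.75 against 1.79 CPM, 2.41 ± 0.19), the secreted carrier Rbp4 was lower (3.61 against 26.05 CPM, -2.85 ± 0.13), and Vdr, the vitamin D receptor, was higher (8.78 against 0.667 CPM, 3.70 ± 0.22).

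In the prostaglandin list, 7 were higher and 2 lower of 22 tested, or 6 of each under total counts without TMM. Ptgis, the prostacyclin synthase, was measured at 62.6, 61.2 and 67.7 CPM in EASCs and 2.57, 2.12 and 2.25 CPM in SASCs, and Hpgd, which inactivates prostaglandins, at 0.335, 0.365 and 0.268 CPM in EASCs and 29.8, 30.3 and 33.3 CPM in SASCs. They moved in opposite directions, with log2 fold changes of 4.77 ± 0.10 (adjusted p = 1.10e-24) for Ptgis and -6.56 ± 0.19 (adjusted p = 2.06e-21) for Hpgd. The thromboxane receptor Tbxa2r was higher (25.7 against 2.45 CPM, 3.40 ± 0.14) and the prostaglandin F receptor Ptgfr lower (9.53 against 132 CPM, -3.80 ± 0.10), although each overlaps another gene on the same strand. Ptgs1, the constitutive cyclooxygenase, was measured at 59.2 against 96.4 CPM and was not called.

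Receptors of vasoactive and lipid signals, listed with some of their peptides and partners, were more often lower: 12 of 53 members tested were higher and 20 lower, with a median log2 fold change of -0.35. Npr3, the clearance receptor of natriuretic peptides (5.58 against 122 CPM, -4.44 ± 0.09), Agtr1a, the angiotensin II receptor (58.4 against 282 CPM, -2.27 ± 0.06), Avpr1a of vasopressin (29.8 against 196 CPM, -2.72 ± 0.06), Oxtr of oxytocin (0.123 against 6.31 CPM, -5.58 ± 0.40) and Adm, encoding adrenomedullin (86.7 against 529.8 CPM, -2.61 ± 0.06), were lower. Both bradykinin receptors, Bdkrb1 (19.2 against 3.34 CPM, 2.52 ± 0.13) and Bdkrb2 (32.9 against 13.2 CPM, 1.31 ± 0.10), were higher, though Bdkrb2 lost its call under total counts without TMM. Also higher were Edn1, encoding endothelin 1 (63.9 against 13.5 CPM, 2.24 ± 0.08), and Gpr39, a zinc-sensing receptor (13.99 against 1.13 CPM, 3.66 ± 0.19), which overlaps a gene on the other strand. Among axon guidance genes, whose ligands and receptors also steer vessels and fibroblasts, 15 were higher and 12 lower of 58 tested, against 10 higher and 15 lower under total counts without TMM. Robo2 (4.76 against 74.3 CPM, -3.96 ± 0.11) and its ligand Slit3 (385 against 1042 CPM, -1.44 ± 0.06) were both lower, and Sema6d was lower (2.48 against 24.3 CPM, -3.29 ± 0.14). Netrin 1 (Ntn1, 12.7 against 2.73 CPM, 2.23 ± 0.15) and its receptors Unc5b (308 against 107 CPM, 1.52 ± 0.06) and Unc5c (6.56 against 0.353 CPM, 4.23 ± 0.27) were all higher, with Epha2 (25.5 against 3.79 CPM, 2.74 ± 0.11).

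Bone and cartilage genes had more members higher than lower: 11 of 22 members tested were higher and 4 lower, with a median log2 fold change of 1.52. Sox9, the master factor of cartilage, was measured at 46.6, 47.8 and 46.97 CPM in EASCs and 7.09, 6.28 and 8.05 CPM in SASCs (log2 fold change 2.73 ± 0.10, adjusted p = 1.65e-19), and the groups were separate. Enpp1, which makes the mineralisation inhibitor pyrophosphate, was higher (122 against 9.28 CPM, 3.72 ± 0.07), and Mgp, another inhibitor of calcification (45.5 against 207 CPM, -2.18 ± 0.07), and Cilp, a cartilage matrix protein (2.79 against 61.2 CPM, -4.45 ± 0.10), were lower. The runt factor Runx1 was measured at 149 against 197 CPM and was not called. The list median above that of all genes was 0.51 with a mean CPM of at least 1, where 7 members were higher, 0.92 without EASCs replicate 2 and 2.44 without SASCs replicate 1. Among imprinted genes, 5 were higher and 5 lower of 25 tested: Cdkn1c, an inhibitor of cell division (0.913 against 30.8 CPM, -5.06 ± 0.15), and Mest (2.45 against 28.1 CPM, -3.52 ± 0.12) were lower, Dio3 was higher (21.02 against 4.41 CPM, 2.26 ± 0.11), and Grb10 and Gnas were not called.

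Among serine proteinase inhibitors and the plasminogen system, 8 were higher and 3 lower of 22 tested. Plau, the activator urokinase, was lower (18.5 against 76.8 CPM, -2.05 ± 0.08) and its receptor Plaur higher (40.9 against 12.2 CPM, 1.75 ± 0.10). Tfpi2 (51.999 against 3.56 CPM, 3.86 ± 0.10) and Serpinb9, an inhibitor of granzyme B (171 against 21.2 CPM, 3.01 ± 0.06), were higher, and Serpina3n was lower (12.2 against 219 CPM, -4.17 ± 0.07).

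Immediate early genes, which serum and stress switch on within minutes, were more often lower: 7 of 43 members tested were higher and 12 lower, with a median log2 fold change of -0.25. As shares these were 16.3% and 27.9%, against 13.6% and 14.2% of all genes tested. Egr1 was measured at 30.1, 30.4 and 33.6 CPM in EASCs and 357, 385 and 418 CPM in SASCs, and Fos at 5.40, 6.40 and 5.59 CPM in EASCs and 44.4, 44.99 and 44.9 CPM in SASCs. Both were lower in all EASCs samples, with log2 fold changes of -3.63 ± 0.07 (adjusted p = 1.45e-25) for Egr1 and -2.95 ± 0.10 (adjusted p = 8.67e-20) for Fos, and Junb (136 against 529 CPM, -1.96 ± 0.06) and Zfp36 (39.7 against 248 CPM, -2.65 ± 0.06) were lower too. Etv4 (18.6 against 2.54 CPM, 2.88 ± 0.14) and Dusp4 (19.2 against 2.67 CPM, 2.84 ± 0.18), which respond to sustained ERK activity, were higher. The labels give no time between handling and lysis, and its part in these genes was not tested. In the circadian list, 2 were higher and 3 lower of 22 tested, with Dbp (16.6 against 48.6 CPM, -1.55 ± 0.09) and Nr1d2 (21.3 against 67.7 CPM, -1.67 ± 0.07) lower. Without EASCs replicate 3 or SASCs replicate 3 the members higher were 1.

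Antioxidant genes and targets of the stress factor NRF2 were more often lower: 5 of 54 members tested were higher and 18 lower, with a median log2 fold change of -0.19. The metallothioneins, small proteins that bind zinc and copper, were lower, as were at lower levels Aox1 (0.776 against 29.1 CPM, -5.22 ± 0.16), an aldehyde oxidase, and Aldh3a1, at 0 in all EASCs samples and 2.33, 1.61 and 2.001 CPM in SASCs. Mt2A was measured at 49.5, 50.7 and 54.1 CPM in EASCs and 1615, 1542 and 1491 CPM in SASCs, and Mt1a at 18.4, 15.7 and 17.4 CPM in EASCs and 438, 349.7 and 420.2 CPM in SASCs. The EASCs samples were 30.1-fold lower for Mt2A and 23.5-fold lower for Mt1a, with log2 fold changes of -4.91 ± 0.07 (adjusted p = 1.13e-28) and -4.55 ± 0.08 (adjusted p = 4.46e-26). Because the pair moved together, the 250 bases before each start are shown from RefSeq (build GRCr8, minus strand), at chr19:10832976-10833225 for Mt1a, which RefSeq names Mt1, and at chr19:10838709-10838958 for Mt2A. Capitals mark the core letters of the metal response element, TGCGCNC or TGCACNC on either strand, at 6 places for Mt1a and 4 for Mt2A:
Mt1a: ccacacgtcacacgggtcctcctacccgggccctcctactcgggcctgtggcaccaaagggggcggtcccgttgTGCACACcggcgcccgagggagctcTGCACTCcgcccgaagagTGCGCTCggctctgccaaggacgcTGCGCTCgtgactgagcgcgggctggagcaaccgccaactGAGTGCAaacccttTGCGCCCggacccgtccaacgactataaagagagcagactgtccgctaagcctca
Mt2A: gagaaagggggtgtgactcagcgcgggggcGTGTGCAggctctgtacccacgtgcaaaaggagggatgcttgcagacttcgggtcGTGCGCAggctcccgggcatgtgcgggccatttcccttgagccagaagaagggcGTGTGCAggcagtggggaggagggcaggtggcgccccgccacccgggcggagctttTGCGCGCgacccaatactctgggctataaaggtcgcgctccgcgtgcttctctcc
At least 1 such match was found in 20.6% of the 33469 promoters, 3 or more in 1.17% and 5 or more in 0.0747%. These 2 were chosen for display after their values and matches were seen. Mtf1, the factor that binds this element, was measured at 11.3 against 15.1 CPM, and the zinc exporter Slc30a1 at 33.8 against 30.96 CPM, and neither was called (the pair was chosen after the values were seen). Sod3, extracellular superoxide dismutase (47.5 against 305 CPM, -2.68 ± 0.06), Gpx3 (409 against 1444 CPM, -1.82 ± 0.06), Sepp1, the selenium carrier (77.2 against 412 CPM, -2.42 ± 0.07), and Hmox1, heme oxygenase 1 (135 against 507 CPM, -1.91 ± 0.06), were lower. The intracellular Gpx1 (221 against 75.999 CPM, 1.54 ± 0.06) and Prdx5 (697 against 324 CPM, 1.10 ± 0.06) were higher, though Prdx5 lost its call under total counts without TMM.

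Targets of the stress factor ATF4 and genes of amino acid supply, listed together, were more often higher: 20 of 52 members tested were higher and 3 lower, with a median log2 fold change of 0.88. Phgdh, the first enzyme of serine synthesis, was measured at 88.9, 86.99 and 88.7 CPM in EASCs and 13.6, 13.2 and 10.6 CPM in SASCs, and Mthfd2, a mitochondrial enzyme of folate metabolism, at 117, 114 and 112 CPM in EASCs and 18.3, 20.2 and 16.3 CPM in SASCs. Neither gene overlapped between the groups, with log2 fold changes of 2.81 ± 0.08 (adjusted p = 4.83e-22) for Phgdh and 2.64 ± 0.07 (adjusted p = 2.34e-22) for Mthfd2. Psph, which completes serine synthesis (33.4 against 8.01 CPM, 2.05 ± 0.11), and the stress targets Trib3 (62.3 against 12.8 CPM, 2.27 ± 0.07) and Chac1 (38.2 against 7.09 CPM, 2.40 ± 0.11) were higher, and Atf4 itself had a log2 fold change of 0.91 ± 0.05, under the threshold. The transporters Slc7a8 (7.44 against 31.9 CPM, -2.10 ± 0.12) and Slc6a6 (45.4 against 162 CPM, -1.84 ± 0.07) were lower. In glucose uptake and glycolysis 8 were higher and 6 lower of 39 tested, which turned to 2 higher and 7 lower under total counts without TMM. Gapdh (2945 against 1182 CPM, 1.32 ± 0.06), Eno1 (2070.2 against 841 CPM, 1.30 ± 0.06), Ldha (1487 against 622 CPM, 1.26 ± 0.06) and the lactate exporter Slc16a3 (192 against 30.4 CPM, 2.65 ± 0.06) were higher, but Gapdh (0.92), Eno1 (0.91) and Ldha (0.86) fell under 2-fold with total counts. Slc2a4, the insulin-regulated glucose transporter, was lower (1.82 against 10.8 CPM, -2.57 ± 0.17).

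Housekeeping classes were nearly free of calls. By edgeR's test and by DESeq2, 0 of 36 endoplasmic reticulum chaperones were called, although 29 were at an unadjusted p under 0.05 at smaller fold changes, with log2 fold changes between -0.56 and 0.88 and a median of 0.29. Of 78 nuclear subunits of oxidative phosphorylation, 2 were higher and 0 lower by edgeR's test, with a median of 0.37, and DESeq2 called 0 lower and 0 were lower at an unadjusted p under 0.05. The members higher were 1 without EASCs replicate 1 or SASCs replicate 3 and 4 without EASCs replicate 2. Of 82 cytosolic ribosomal proteins 1 was higher, which was lost without EASCs replicate 1, and 0 were lower by edgeR's test and by DESeq2, with 2 lower at an unadjusted p under 0.05, and the median was 0.26. Pseudogene copies of ribosomal protein genes are near-identical and could have taken or split their reads.

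Beyond the lists, the largest increases among annotated genes of at least 10 CPM included those of Zbtb7c (10.6 against 0.0467 CPM, log2 fold change 7.83 ± 0.34), Prss35 (164 against 0.756 CPM, 7.75 ± 0.10), Olr1, the receptor of oxidised low density lipoprotein (198 against 1.40 CPM, 7.11 ± 0.09), and Gjb2, encoding connexin 26 (12.8 against 0.161 CPM, 6.23 ± 0.25). Prss35, a serine proteinase-like secreted protein, was measured at 171, 163 and 157 CPM in EASCs and 0.765, 0.722 and 0.781 CPM in SASCs, so that its lowest EASCs sample stood far above the highest SASCs sample. Rasl12 (93.4 against 2.78 CPM, 5.07 ± 0.10), Stac2 (43.3 against 1.47 CPM, 4.87 ± 0.12), Uchl1, a ubiquitin hydrolase of neurons (19.4 against 0.811 CPM, 4.55 ± 0.16), and Fam132b, encoding erythroferrone (19.1 against 0.906 CPM, 4.39 ± 0.15), were among the 15 largest increases too.

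The largest decreases included Fam198a, at 0 in all EASCs samples and 10.4 CPM in SASCs, at least 82.1-fold lower. Sned1, a matrix glycoprotein, was measured at 3.47, 2.88 and 3.18 CPM in EASCs and 639.9, 658 and 746 CPM in SASCs (log2 fold change -7.74 ± 0.10, adjusted p = 6.75e-29), and another gene overlaps it on the same strand. Mme, the cell-surface peptidase neprilysin or CD10, was measured at 18.1, 20.997 and 15.5 CPM in EASCs and 729.7, 715 and 774 CPM in SASCs (log2 fold change -5.34 ± 0.08, adjusted p = 1.51e-27). Like Anpep and Dpp4, it is an ectopeptidase and was lower in all EASCs samples. Cpxm1 (3.75 against 175 CPM, -5.55 ± 0.09), Akr1cl (0.858 against 89.3 CPM, -6.69 ± 0.13), Nptx1, a neuronal pentraxin (0.475 against 66.7 CPM, -7.11 ± 0.15), Sncg, encoding gamma-synuclein (1.51 against 71.9 CPM, -5.58 ± 0.13), and Scin, an actin-severing protein (0.0824 against 16.2 CPM, -7.49 ± 0.29), were lower. Against PASCs, the EASCs means of Sned1 (3.18 and 3.65 CPM) and Cpxm1 (3.75 and 2.16 CPM) were within 2-fold, while Nptx1 (0.475 and 5.63 CPM, log2 fold change -3.53, adjusted p = 1.30e-13) and Sncg (1.51 and 23.4 CPM, log2 fold change -3.96, adjusted p = 3.24e-18) were lower in EASCs.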

How the data were processed

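Gene expression was measured by RNA-seq of passage 3 ASCs in 9 samples, 3 each of EASCs, SASCs and PASCs, while the methods of the study state 6 replicates a group. According to those methods the authors trimmed paired reads of 150 bases with cutadapt 3.1 and FastX-Toolkit 0.0.13 and aligned them with TopHat 2.1.1 to rn6. The submitters' processing notes name TopHat2 and rn5, and the coordinates of the table ran to the rn6 end of chromosome 1. The counter, its use of strand and its handling of multiply mapped reads are not given in the sources used here, so overlapping genes and near-identical copies are uncertain. The deposited values were raw counts for 35362 genes, with 0 count columns left unmapped to a sample, and gene lengths, used only for levels per kb. Spreadsheet conversion had turned 27 gene symbols into dates, and these were not named.

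Groups were taken from the labels. In R 4.3.3, edgeR 4.0.16 fitted all 9 samples in 1 quasi-likelihood model after filterByExpr (14770 genes) and TMM scaling (factors 0.740 to 1.23). SEs were derived from the log2 fold change and its F statistic. Totals ran from 17591916 to 30299032 counts, and 3 counts, the floor used for genes at 0, corresponded to 0.104 to 0.159 CPM. Floors cover counting error only. Replicates of a group differed by more than counting noise in every pair, the ratio of chi-square to its degrees of freedom being 6.06 to 274 over genes. The ratio was taken on counts without TMM and with rRNA genes included, so it also holds differences in the rRNA share. It was largest for EASCs replicates 2 and 3, whose rRNA shares were 15.9% and 40.3%. On data simulated for EASCs against SASCs over 14770 genes, 196 of 200 changed genes were recovered with 1 false call. The simulation changed only those 200 genes, equally often up and down, with 1 common dispersion and no shift in composition. In the data 27.8% of genes were called and the rRNA shares differed, so it cannot show how the calls hold under those conditions.

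Members and the 42 gene lists (1854 genes, 1820 found) were chosen with earlier results of these data known, and cell cycle, actin, complement, cholesterol and lysosome genes were left out. From each list up to 5 higher and 5 lower genes with the largest fold at a mean of at least 5 CPM were eligible for naming, with the 3 most abundant, and any other member where a result turned on it. Outside the lists, the 15 largest increases and 15 largest decreases at a mean of at least 10 CPM with separate groups were eligible. Alternatives were DESeq2 1.42.0, total counts, RLE factors, other filters and thresholds, the 6 samples alone, removal of rRNA genes, the replicate number as a block, and leaving out each sample. Promoters came from RefSeq.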

Additional observations from a re-analysis of the deposited data

How the results depend on the processing

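The main comparison gave 2002 genes higher and 2103 lower. With a fold change above 4 these were 879 and 837, with an adjusted p under 0.05 at any fold change 5239 and 5059, and under total counts without TMM 3426 were lower. The other planned settings stayed within 1.5 times, from 1349 (total counts) to 2233 higher and from 1536 to 2343 lower. Leaving out 1 sample at a time gave 1984 to 2047 higher and 2091 to 2154 lower, and kept 3832 to 3875 of the 4105 calls with 0 reversed. The difference in the ribosomal RNA share, 14.8 percentage points, ran from 8.91 to 21.1 when 1 sample was left out. For EASCs against PASCs, with 1091 calls, the alternatives were added after seeing the data and gave 812 to 1145. Of 302 named genes, under total counts without TMM 18 lost their call, 5 gained one, and 8 uncalled genes changed sign, namely Cav1 (-0.32), Col3a1 (-0.32), Cyr61 (-0.18), Fn1 (-0.20), Grb10 (-0.073), Id3 (-0.041), Slc30a1 (-0.26) and Snai1 (-0.22). The calls lost included Gapdh (0.92), Eno1 (0.91), Ldha (0.86), Cdh11 (0.90) and Col5a1 (0.75). Angptl4, Bdkrb2, Chrna1, Ehd3, Ehd4, Il4r, Msx1, Nkd1, Prdx5, Prkcdbp and Ptrf lost theirs too. Ndufa4l2 and Cdh15 also lost their calls under the other settings named beside them. This scaling shifts every gene by the same amount in a sample. Of 84 counts of list members, 24 moved by over 1.5 times under it. Lower members rose from 2 to 7 among epithelial-mesenchymal transition factors, 2 to 5 in collagen modification, 8 to 15 among proteoglycans, 5 to 9 among integrins and laminins, 5 to 13 among interferon-stimulated genes, 2 to 4 in antigen presentation, 2 to 6 among prostaglandin genes, 1 to 4 among YAP and TAZ genes, 3 to 7 among clock genes and 3 to 5 in amino acid supply. Higher members went from 18 to 11 in the TGF-beta list, 16 to 10 among growth factors, 21 to 11 among chemokines and cytokines, 8 to 5 among metalloproteinases, cadherins and interferon-stimulated genes, 8 to 2 in glycolysis, 20 to 13 in amino acid supply, 5 to 3 among antioxidant genes, 5 to 1 in the list of caveolae and membrane tension, 4 to 2 in antigen presentation, 2 to 1 among clock genes, 2 to 0 in oxidative phosphorylation and 1 to 0 among adipocyte genes. With a mean CPM of at least 1, which tests fewer genes, 12 list counts moved: lower members went from 13 to 8 in the limb list and 9 to 5 among collagens, and higher members from 8 to 3 among cadherins, 10 to 6 in the Wnt list, 3 to 1 in the insulin-like growth factor list, 21 to 11 among chemokines and cytokines, 4 to 1 in antigen presentation, 11 to 7 in the bone and cartilage list, 5 to 3 among imprinted genes, 2 to 1 among clock and oxidative phosphorylation genes and 1 to 0 among ribosomal proteins. Without a filter, higher members were 2 in place of 1 among epithelial-mesenchymal transition factors and 5 in place of 3 among progenitor subtype genes. RLE factors and DESeq2 each gave 1 in place of 2 higher for clock and oxidative phosphorylation genes, and the 6 samples alone 0 in place of 1 for ribosomal proteins. Some list medians above that of all genes changed sign: that of cadherins from 0.27 to -0.10 with a mean CPM of at least 1, that of progenitor subtype genes from 0.05 to -0.10 without SASCs replicate 1, that of axon guidance genes from -0.05 to 0.10 without SASCs replicate 3, and those of Hox and Wnt genes without single samples. Depth limits genes near 3 counts per library, whose folds against a group at 0 are lower bounds.

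The replicate numbers share only a number: deviations of same-numbered EASCs and SASCs samples correlated across genes at 0.0306, 0.00342 and 0.0449, against -0.0706 to 0.0450 for different numbers. With the replicate number as a block 1981 genes were higher and 2080 lower, and no named gene or list count moved.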
